A study of Mus musculus with 3 samples.

Results

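Insulin-like growth factor 1 (IGF1), 2 receptors of the IGF system and the IGF binding proteins were followed across 3 microarrays of cultured mouse cells (strain C57BL/6), which the labels call primary endothelial cells from the penis cavernous tissue. The 9 genes, Igf1, Igf1r, Igf2r, Igfbp2, Igfbp3, Igfbp4, Igfbp5, Igfbp6 and Igfbp7, were chosen by symbol. They were read on 13 probes, found through the RefSeq accession of each probe, out of 20886 genes on 27508 probes that matched 1 gene. The conditions were normal glucose (5 mmol, as the labels put it), high glucose (30 mmol), and high glucose plus DKK2 (Dickkopf 2), a secreted modulator of Wnt signalling. DKK2 was given only in high glucose, so a comparison of DKK2 with normal glucose differs in both glucose and DKK2, whose parts cannot be told apart. The sources used here do not state the dose of DKK2. All cells were exposed for 48 h and grew in Medium 199 with fetal bovine serum, heparin and vascular endothelial growth factor A. Each array carried the pooled RNA of 3 samples, so a condition had 1 array, there was no replicate check, and no p-value was computed. The study's title asks how DKK2 acts on expression induced by high glucose.

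IGF1 is a secreted growth factor that acts through the receptor tyrosine kinase encoded by Igf1r. The receptor encoded by Igf2r has no kinase. It takes up IGF2 and proteins tagged with mannose 6-phosphate and delivers them to lysosomes. The IGF binding proteins are secreted carriers that hold IGFs outside the cell, lengthen their life and set how much of them reaches the receptor; proteases free the growth factor by cutting them. Cells of the vessel wall secrete several of the binding proteins, and serum and mesenchymal cells are further known sources of IGFs and their carriers.

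A spot's processed signal is its brightness after background correction, and series of 3 signals are given in the order normal glucose, high glucose, DKK2. Over all 39429 probes its median was 102, 196 and 204 and its 75th percentile 1201, 2380 and 2417 in the same order. The arrays thus differed in brightness, with normal glucose lowest. Differences below are therefore on the log2 scale after division by each array's 75th percentile, and a gene counted as higher or lower where it was at least 2-fold apart. The scanner's error model gave each difference of the 13 probes a technical error SD of 0.20 to 0.21, which leaves out variation between cultures. Of all probes 76.6%, 84.7% and 83.9% were well above background, the fewest in normal glucose. Of 14 endothelial markers 13 were well above background in normal glucose and 14 on the other arrays, with a signal for Kdr, Pecam1 and Cdh5 of 3648, 135 and 195 in normal glucose, and so were all 10 fibroblast and all 9 smooth muscle and pericyte markers on the 3 arrays. The endothelial marker not detected in normal glucose was Emcn, with a signal of 9.89 there, near the lowest detected signal of 7.57. Signals of different probes cannot be turned into amounts, and fewer cells of a type and less RNA per cell cannot be told apart on these arrays.

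With DKK2 in high glucose, the binding protein genes Igfbp2 and Igfbp3 were lower than in high glucose alone, Igfbp2 by 9.49-fold and Igfbp3 by 3.47-fold. The other 7 genes lay within 2-fold on their brightest probe, which stands for the gene here; 1 of the 3 other probes of Igf1 was 3.06-fold lower, and the mean over its 4 probes was at -0.84 on the log2 scale against -0.39 for the brightest. Between high and normal glucose all 9 genes lay within 2-fold, and against normal glucose the cells with DKK2 had lower Igfbp2, Igfbp3 and Igfbp5 and higher Igfbp7. Of all genes 8.4% were at least 2-fold apart between high and normal glucose. With DKK2 against normal glucose 10.4% of genes were lower and 10.5% higher. All 13 probes were well above background on all 3 arrays. Markers of other cell types differed between DKK2 and high glucose, where 42.4% of all genes lay below 0, 4.85% were at least 2-fold lower and 5.08% higher. All 10 fibroblast markers (median -0.58, 3 lower) and all 9 smooth muscle and pericyte markers (median -0.36, 1 lower) lay below 0. At least 2-fold lower were 4 of 7 adipocyte (median -1.09), 4 of 6 skeletal muscle (median -1.31) and 5 of 14 endothelial markers, and 5 of 8 macrophage markers were higher (median 1.60); their part in the differences of the IGF genes was not tested.

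**Figure D1:**
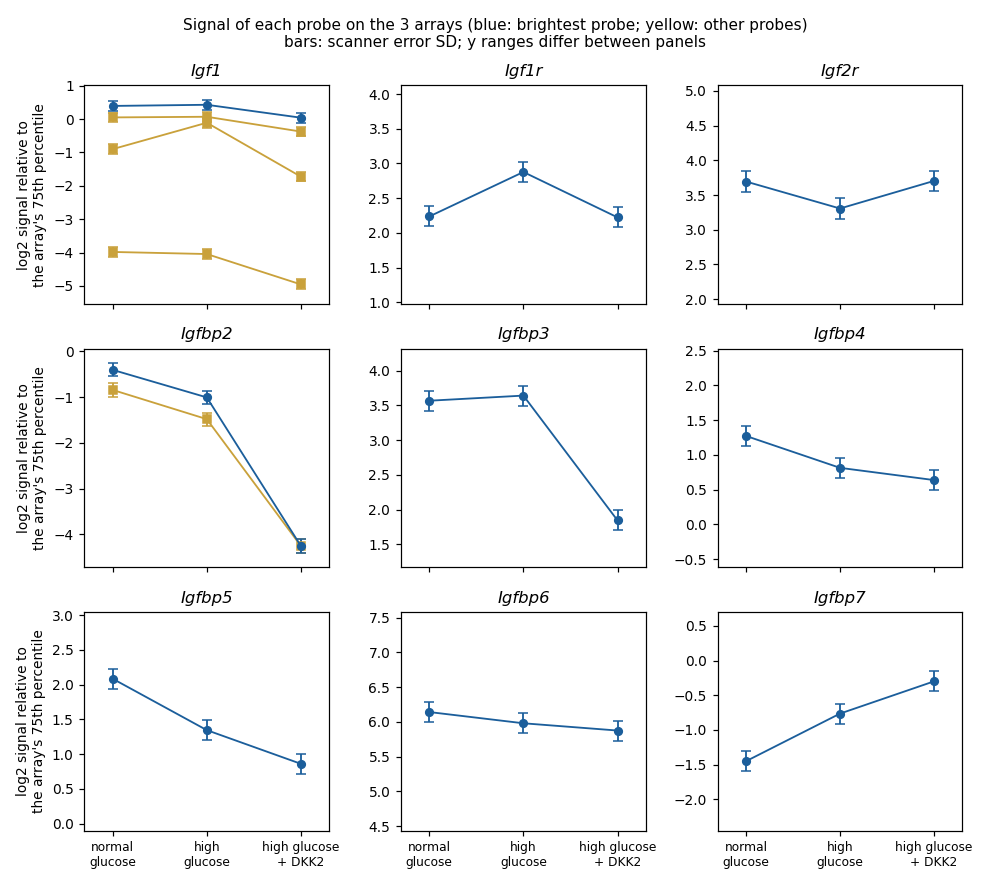
Signal of every probe of the 9 genes on the 3 arrays, as log2 of the processed signal relative to the array's 75th percentile. The horizontal axis gives the 3 conditions, points are single arrays, bars are the scanner's error SD, blue marks the brightest probe of a gene and yellow its other probes, and each panel has its own vertical range. Igfbp2 and Igfbp3 are lowest on the DKK2 array, and Igfbp7 is lowest in normal glucose and highest with DKK2.

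The start regions of Igfbp2, Igfbp3 and Igfbp7 are shown because DKK2 acts on Wnt signalling, whose nuclear TCF/LEF factors bind short known motifs. In the comparisons with DKK2, Igfbp2 and Igfbp3 had the 2 lowest values of the 9 genes and Igfbp7 the highest. That of Igfbp7 was 0.46 against high glucose, under 2-fold and closer to 0 than some negative values. Each window holds 250 bases before to 50 bases after a RefSeq transcript start (build GRCm38.p6), printed 5′ to 3′ on the gene's strand; capitals mark matches on either strand to the GC box motif GGGCGG, the TATA box motif TATAAA, the TCF/LEF motif spelled CTTTGAT or CTTTGAA, and the E-box motif CACGTG.
Igfbp2, chr1:72824230-72824529, plus strand: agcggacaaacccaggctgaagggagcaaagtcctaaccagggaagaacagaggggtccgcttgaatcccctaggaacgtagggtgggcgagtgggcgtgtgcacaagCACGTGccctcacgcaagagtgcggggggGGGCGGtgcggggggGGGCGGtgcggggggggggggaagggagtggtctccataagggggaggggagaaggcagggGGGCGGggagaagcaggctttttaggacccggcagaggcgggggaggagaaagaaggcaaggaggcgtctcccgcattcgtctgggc
Igfbp3, chr11:7213874-7214173, minus strand: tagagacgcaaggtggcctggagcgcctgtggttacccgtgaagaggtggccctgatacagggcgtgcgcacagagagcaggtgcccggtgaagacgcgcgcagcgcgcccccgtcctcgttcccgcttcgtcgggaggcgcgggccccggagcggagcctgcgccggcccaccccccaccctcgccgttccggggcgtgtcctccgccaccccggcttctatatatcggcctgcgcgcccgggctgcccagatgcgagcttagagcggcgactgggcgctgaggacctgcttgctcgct
Igfbp7, chr5:77407996-77408295, minus strand: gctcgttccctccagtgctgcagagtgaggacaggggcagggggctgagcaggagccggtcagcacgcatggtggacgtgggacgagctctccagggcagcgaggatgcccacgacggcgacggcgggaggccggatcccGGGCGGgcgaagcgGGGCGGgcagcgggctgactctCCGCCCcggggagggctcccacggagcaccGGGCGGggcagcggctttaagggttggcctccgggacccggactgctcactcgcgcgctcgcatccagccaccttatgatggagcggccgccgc
The Igfbp2 window held 3 GC boxes, with leftmost bases at -113, -98 and -37 from the start, and 1 E-box at -142; a second RefSeq start of the gene had a window with no match. That of Igfbp3 held no match, and that of Igfbp7 held 4 GC boxes, at -110, -96, -74 and -44. Of 32851 windows of the same length, 35.7% held a GC box, 13.6% a TATA box, 8.65% a TCF/LEF motif and 7.15% an E-box. Among the 10 windows of the 9 genes, 4 held a GC box, 2 a TATA box, 2 an E-box and 1, that of Igf1, a TCF/LEF motif at -186. GC content was 67.0%, 71.7% and 73.3% in the printed windows of Igfbp2, Igfbp3 and Igfbp7, against a median of 52.7% over all windows. A match is a run of letters and no evidence of binding.

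The ligand gene Igf1 was read on 4 probes, all annotated with the same RefSeq transcript. Its brightest probe had a signal of 1576, 3198 and 2484. After scaling these stood at 1.31, 1.34 and 1.03 times the array's 75th percentile, so its brighter raw signal in high glucose was matched by that of the array at large. The log2 difference was 0.03 between high and normal glucose and -0.39 between DKK2 and high glucose, the latter 1.31-fold lower. The second brightest probe read nearly the same, at 0.02 and -0.44. The third, with signals of 643, 2203 and 730, differed from both: it was at 0.79 in high glucose against normal glucose and at -1.62, 3.06-fold lower, with DKK2 against high glucose. The dimmest, with signals of 76.1, 144 and 78.0, was at -0.06 and -0.91. All 4 probes were thus below 0 with DKK2 against high glucose, but by amounts from 1.31-fold to 3.06-fold, and the mean over the probes was at -0.84. Against normal glucose the 4 probes with DKK2 ran from -0.97 to -0.35. Which transcript forms the probes detect was not analysed here.

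The signalling receptor gene Igf1r had a signal of 5663, 17493 and 11294. High glucose had the highest scaled level, 0.64 (1.56-fold) above normal glucose on the log2 scale. DKK2 was at -0.65 against high glucose and at -0.01 against normal glucose. Both steps were over 2 technical errors and under 2-fold. They share the high glucose array, so an error on that array would move both in opposite ways. The clearance receptor gene Igf2r was spotted 10 times per array, which gives it a measured technical spread: its mean signal was 15564 ± 660 (SD over 10 spots), 23555 ± 893 and 31516 ± 1244. Its scaled level ran the other way from that of Igf1r, with high glucose lowest at -0.39 against normal glucose and DKK2 at 0.40 against high glucose and 0.01 against normal glucose. Each of these steps was within 2 technical errors from the error model, which allows for more than the spread of spots.

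Among the carriers, Igfbp2, whose product binds IGFs and, through an integrin-binding motif, cell surfaces, showed the widest range. Its brighter probe had a signal of 906, 1184 and 127. The array with DKK2 was thus the lowest of the 3 even before scaling, by a factor of 0.107 against high glucose. The log2 difference was -0.60 in high glucose against normal glucose, -3.25 with DKK2 against high glucose and -3.85 (14.4-fold) with DKK2 against normal glucose. The other probe, at 669, 852 and 127, gave -0.64, -2.77 and -3.41. On the DKK2 array the raw spot brightness was 5.78 and 5.92 times the local background for the brighter and the other probe, against 47.4 and 30.4 times in high glucose, so both probes remained measurable. Of 17825 genes compared between DKK2 and high glucose, 0.18% had a lower value than the brighter probe.

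Igfbp3 encodes the main IGF carrier of blood plasma, which many cell types also secrete locally. It had a signal of 14242, 29704 and 8683. High and normal glucose differed by 0.07 after scaling, within the technical error, and DKK2 was lower than both, at -1.80 against high glucose and -1.72 (3.30-fold) against normal glucose. With DKK2 against high glucose 1.28% of genes had a lower value. The order of the arrays thus differed between the 2 genes. Igfbp2 stood at -0.60 in high against normal glucose, which is under 2-fold, and was lower with DKK2 than on both other arrays. Igfbp3 was lower only on the array with DKK2 in high glucose.

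Igfbp4, whose product mainly restrains IGF action and is cut by the protease PAPP-A, had a signal of 2905, 4185 and 3761 in normal glucose, high glucose and DKK2. It was at -0.46 in high glucose against normal glucose and at -0.18 with DKK2 against high glucose, the second step within 1 technical error. Igfbp5, which encodes a carrier that binds extracellular matrix, had a signal of 5099, 6051 and 4390. It was at -0.74 in high against normal glucose and at -0.49 with DKK2 against high glucose, both over 2 technical errors, and DKK2 was 2.34-fold lower than normal glucose. In the mouse gene order Igfbp2 and Igfbp5 are neighbours on chromosome 1, and Rpl37a, on the other side of Igfbp2, was at -0.05 with DKK2 against high glucose. Igfbp3 and Igfbp1, which is not among the 9 genes, are neighbours on chromosome 11; Igfbp1 was well above background on the high glucose array alone, at the edge of detection, and no fold is given.

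Igfbp6, whose product prefers IGF2 over IGF1, had a signal of 84832, 150289 and 141937 in normal glucose, high glucose and DKK2. The scaled steps were -0.16 and -0.10, within 1 technical error each. Igfbp7 encodes a carrier of low affinity for IGFs that is deposited around vessels. It had a signal of 440, 1402 and 1964, and both steps were upward, at 0.69 and 0.46, each over 2 technical errors. With DKK2 it was 2.22-fold higher than in normal glucose, and just under 2-fold, at 1.00 on the log2 scale, with normexp background correction. Among the 6 binding protein genes it was the 1 above 0 in the comparisons with DKK2, while the other 5 were below 0. Of all genes 42.4% lay below 0 with DKK2 against high glucose and 43.5% against normal glucose. Against high glucose Igfbp4 and Igfbp6 were within 1 technical error of 0, so their side is not settled.

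**Figure D2:**
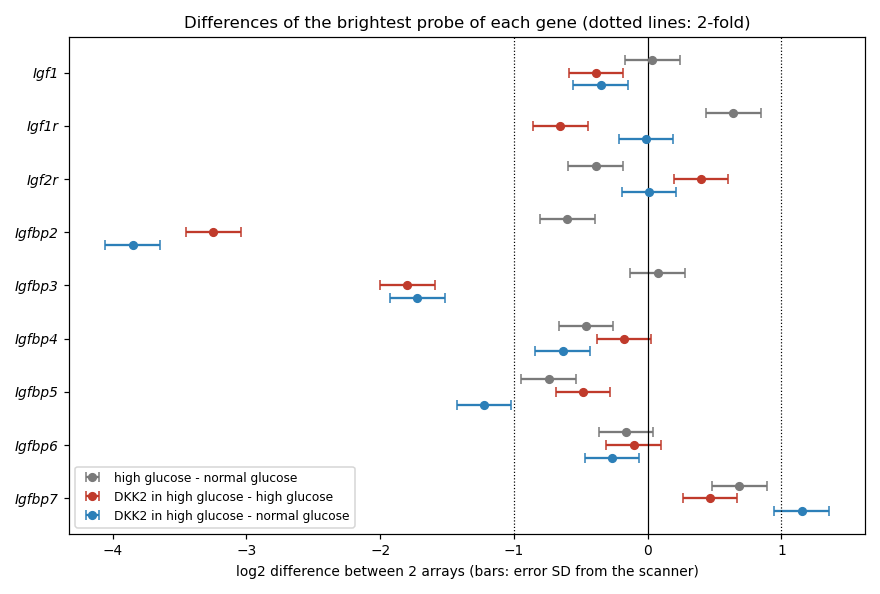
Log2 differences of the brightest probe of each gene between pairs of arrays, with the scanner's error SD as bars and 2-fold as dotted lines. Grey is high against normal glucose, red is DKK2 in high glucose against high glucose, and blue is DKK2 in high glucose against normal glucose. Igfbp2 and Igfbp3 lie beyond 2-fold in red and blue, Igfbp5 and Igfbp7 in blue only.

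Set against all genes, the count in high against normal glucose was 0 of 9 at least 2-fold apart, where 8.4% of 16766 genes were (2.67% higher and 5.73% lower). The 9 genes had a median difference of -0.16, with 5 below 0, beside a median of 0.09 over all genes and 43.6% of genes below 0. With DKK2 against high glucose 2 of 9 were lower and 0 higher, where 9.93% of 17825 genes were apart, 4.85% lower and 5.08% higher. Their median was -0.39 and 7 of 9 lay below 0, beside a median of 0.08 over all genes and 42.4% of genes below 0. With DKK2 against normal glucose 3 of 9 were lower and 1 higher, where 20.8% of 16676 genes were apart, 10.4% lower and 10.5% higher. The median was -0.35 beside 0.12, and 7 of 9 lay below 0 beside 43.5% of genes. With normexp the all-gene split against normal glucose was 172 higher and 3931 lower for high glucose and 938 higher and 4005 lower for DKK2, beside 448 and 960, and 1744 and 1727, here. The 3 comparisons share arrays and are not separate evidence.

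**Figure D3:**
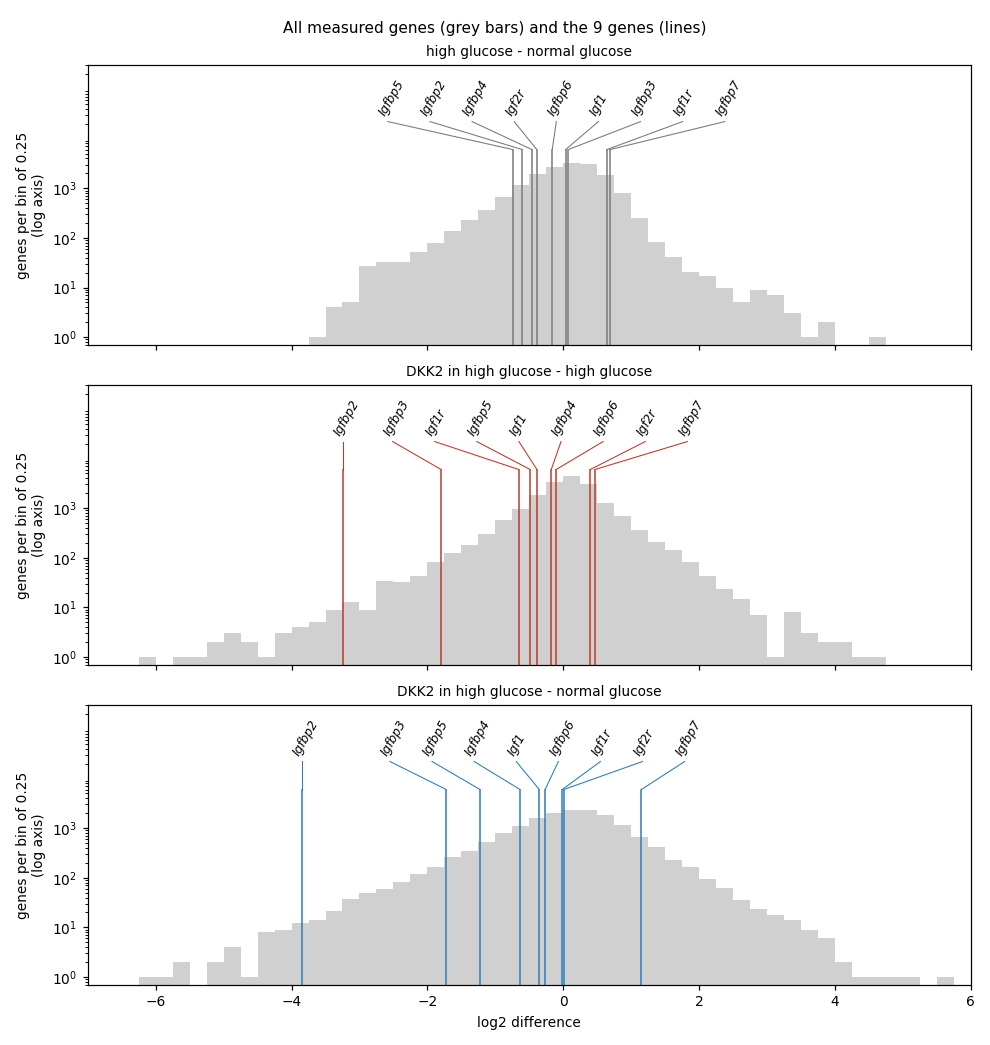
Number of genes per bin of 0.25 log2 units (log axis) against the log2 difference, for the 3 comparisons, with coloured lines at the values of the 9 genes. In high against normal glucose the lines lie in the body of the distribution, and with DKK2 the lines of Igfbp2 and Igfbp3 lie in its lower tail.

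Other genes of the IGF pathway were taken from 5 lists of 54 genes, of which 51 were measured in each comparison. In high against normal glucose 0 were higher and 4 lower, with DKK2 against high glucose 1 was higher and 4 lower, and with DKK2 against normal glucose 3 were higher and 7 lower, shares of 7.84%, 9.80% and 19.6% against 8.4%, 9.93% and 20.8% of all genes. The lists as a whole thus lay past 2-fold about as often as genes at large. In the same order 28, 31 and 35 of the 51 genes lay below 0, beside 43.6%, 42.4% and 43.5% of all genes. Their medians were -0.10, -0.10 and -0.36, beside 0.09, 0.08 and 0.12 over all genes.

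Genes that act on the binding proteins held the 2 largest differences of these lists with DKK2 against high glucose, read on brightest probes. Pappa encodes PAPP-A, the protease that cuts IGFBP4 and also IGFBP5. Its signal was 847, 2334 and 773, which put DKK2 at -1.62 (3.07-fold lower) against high glucose and at -1.14 against normal glucose. Stc2 encodes stanniocalcin 2, a secreted inhibitor of PAPP-A. Its signal was 402, 936 and 2899, with DKK2 at 1.61 (3.05-fold higher) against high glucose and at 1.84 against normal glucose. The protease gene and the gene of its inhibitor thus differed in opposite directions on the same pair of arrays, each on a single probe. In the same list Pappa2 and Stc1 lay within 2-fold with DKK2 against high glucose, at -0.24 and -0.10. Htra1, a serine protease gene whose product cuts IGF binding proteins among other targets, was at 0.76 with DKK2 against high glucose and at 1.49 against normal glucose. Plau, which encodes the urokinase plasminogen activator, was at -1.14 with DKK2 against high glucose. Adam12, another gene of this list, was at -0.21 on its brightest probe there. Another probe of Adam12 was at -1.81, further from 0 than Pappa and Stc2. Of 9 measured genes in this list 1 was higher and 2 lower with DKK2 against high glucose, with a median of -0.10, and in high against normal glucose 0 passed 2-fold.

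Igf2, the second IGF ligand, was dim, with a signal of 68.6, 38.5 and 26.6 in normal glucose, high glucose and DKK2. It was at -1.82 in high against normal glucose and at -2.38 with DKK2 against normal glucose. Ins2, an insulin gene, was at -1.30 and -1.18 in the same comparisons. Ghr, the growth hormone receptor gene, was at -1.18 with DKK2 against normal glucose on its brightest probe, and its other probe was at 0.18. With DKK2 against high glucose 0 of 7 measured ligands, receptors and carriers of this list passed 2-fold. Of 3 mRNA-binding proteins that take IGF2 mRNA as a target, Igf2bp1 was lower with DKK2 against high glucose, at -1.07 and at -0.27 with normexp background correction, with a signal of 19.7 with DKK2. Against normal glucose it was at -1.17.

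Downstream of the receptors, Irs1, which encodes the adaptor that links the IGF1 and insulin receptors to PI3 kinase, had a signal of 8429, 21296 and 9368. With DKK2 it was at -1.21 (2.31-fold lower) against high glucose, and its other probe was at -0.72; the mean over its probes was at -0.96, under 2-fold. Of 28 measured adaptor and PI3K-AKT-FOXO genes Irs1 was the 1 past 2-fold in that comparison, and the list's median was -0.07. In high against normal glucose Foxo3, a transcription factor gene, was at -1.72 with a signal of 108 and 65.1, and Gsk3b, a kinase gene, was at -1.02; the other 2 probes of Gsk3b were at 0.03 and 0.47, and the mean over its probes was at -0.17. With DKK2 against normal glucose Foxo3 was at -1.73, Gsk3b at -1.22 (-0.31 as the mean over probes) and Pik3cb, a catalytic PI3 kinase subunit gene, at 1.04 (0.54 with normexp). The 4 genes of the mannose 6-phosphate pathway, which makes and reads the tag that the Igf2r product binds, lay within 2-fold in the 3 comparisons.

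**Figure D4:**
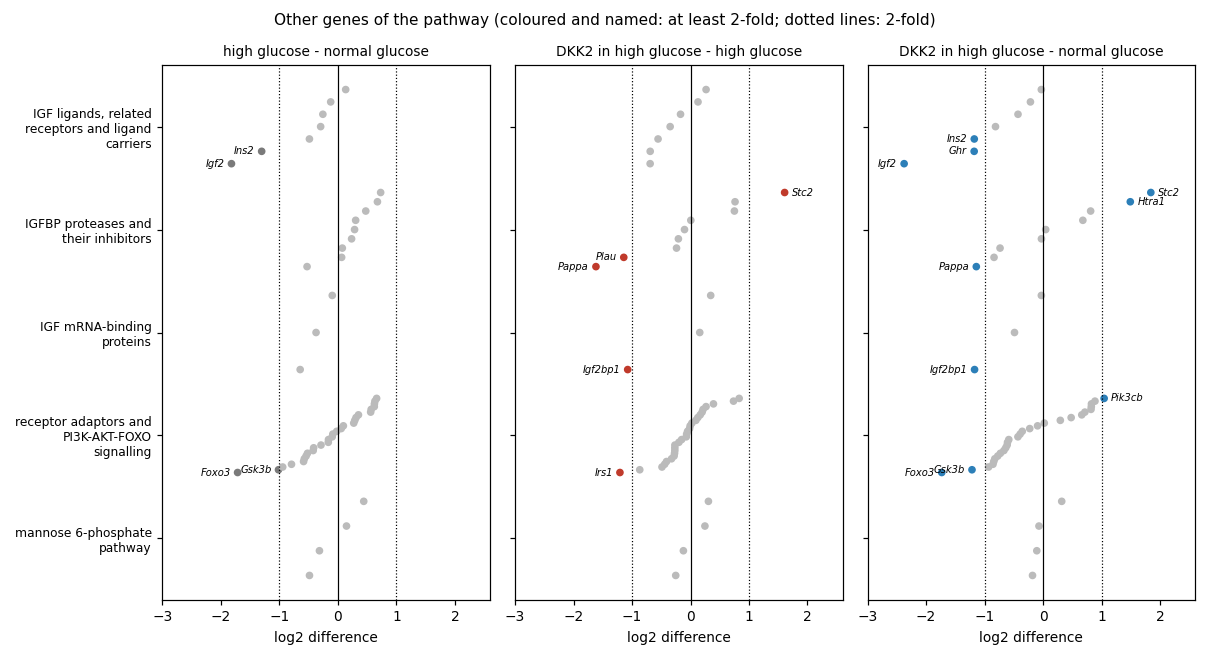
Log2 differences of the other pathway genes by list, for the 3 comparisons; each point is 1 gene, read on its brightest probe, sorted within its list, and dotted lines mark 2-fold. Coloured and named genes lie beyond 2-fold, with Stc2 and Pappa the most distant points in opposite directions with DKK2 against high glucose.

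Likeness to Igfbp2 was read as the distance between pairs of log2 differences (high against normal glucose, DKK2 against high glucose). It was taken over 15683 genes well above background on the 3 arrays, with clone and predicted names left out. The nearest of these were Obsl1, Ptprq and Chrdl1, at distances of 0.07, 0.14 and 0.17. Obsl1 encodes a cytoskeletal adaptor, and its signal was 2709, 3500 and 392. Ptprq, a receptor-type phosphatase gene, had a signal of 199, 237 and 26.1. Chrdl1, which encodes a secreted antagonist of bone morphogenetic proteins, had one of 96.1, 119 and 11.4. On the DKK2 array the lowest signal well above background was 7.97, so Chrdl1 was near the floor there. In all, 6 of the 15683 genes lay within 0.5 of Igfbp2. The likeness rests on 3 arrays, 1 of which enters both differences.

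The summed scaled signal of the fibroblast markers was 512, 475 and 339 times the array's 75th percentile, and all were well above background on the 3 arrays. The sum was 84.3, 51.2 and 29.7 over 9 smooth muscle and pericyte markers and 17.1, 22.3 and 8.85 over 7 adipocyte markers. Over 8 macrophage markers it was 2.36, 2.72 and 7.63, and over 14 endothelial markers 5.98, 6.60 and 6.96; with DKK2 against high glucose 0 of the endothelial markers were higher, 8 lay below 0 and their median was -0.32. Kdr alone gave 3.04, 3.84 and 4.51 of that endothelial sum, and the other 13 markers summed to 2.95, 2.76 and 2.45. In high against normal glucose, however, 12 of 13 measured endothelial markers lay above 0 (median 0.47), beside 56.4% of all genes. There 4 were higher and 0 lower, beside 2.67% and 5.73% of all genes. The 1 below 0 was Eng, a bright marker, at -0.86. Over 6 skeletal muscle markers the sum was 1.82, 1.39 and 0.411. Of 4 Schwann cell markers 1 was lower with DKK2 against high glucose, and the sum was 1.34, 1.53 and 1.00. Of 4 epithelial markers 3 were measured and 1 was lower, and the sum was 0.204, 0.173 and 0.279. Each sum is weighted to its brightest markers, such as Acta2 and Fabp4, with signals of 49633, 50160 and 15980 and of 12303, 31733 and 15172. With DKK2 against normal glucose 2 of 9 smooth muscle and pericyte markers lay above 0 (median -0.51). So did 2 of 7 adipocyte markers (median -1.11).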

How the data were processed

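Cy3-labelled RNA was read on 1-colour Agilent mouse arrays. Per the file headers, spots were quantified with Feature Extraction 11.5.1.1 on a design of build mm9, and each deposited scanner file gives, for every spot, its processed intensity (linear), the error of it and flags. The deposited value table holds the same intensity, equal to the scanner's within a fraction of 0.001 for 99.75% of values, with column medians of 102, 196 and 205; no scale, centring or log was added.

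From these files 1377 control spots and 110 to 136 outlier spots per array were left out; 0 spots were saturated. The processed signal was averaged over a probe's spots as log2, and the 75th percentile of the array was subtracted. The files hold no gene name column, so probes were named by RefSeq accession through a gene table of build GRCm38.p6, used for names, gene order and promoter sequences: 27508 probes matched 1 gene and 11921 none. A gene was read on its brightest probe among those well above background (at least 50% of its spots) on at least 1 array, and compared where that probe was above it on both arrays. Named were all 9 genes, every pathway gene at least 2-fold apart and the 3 genes nearest to the member of widest range, clone and predicted names left out. Adam12, Pappa2 and Stc1 are named beside them. Marker lists are given by counts and sums, with a few markers named. The genes and lists were chosen with earlier results of these data known. The counting was tested on simulated data. Alternatives were normexp (offset 50, on the median signal because no mean signal was in the files), quantile, median and cyclic loess normalization, other filters, other fold rules, the deposited table and averaging the probes of a gene. The software was Python 3.11.15 (pandas 2.3.3, numpy 2.4.6) and, for the normalizations, limma 3.58.1 in R 4.3.3. The number of arrays limits the precision.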

Additional observations from a re-analysis of the deposited data

How the results depend on the processing

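Igfbp2 and Igfbp3 stayed at least 2-fold lower with DKK2, against high glucose and against normal glucose, in the 8 alternatives to the scaling, background, filter, probe rule and table, of which the 2 filters could not move them because the brightest probe of each of the 9 genes passes both. The mean over probes could not move Igfbp3 either, which has 1 probe. Median scaling and the deposited table could move both genes only slightly. Against high glucose Igfbp2 ran from -3.29 to -2.71 (the latter with normexp) and Igfbp3 from -1.89 to -1.77; Igfbp5 against normal glucose ran from -1.37 to -1.10, past 2-fold in all 8, and Igfbp7 from 0.9997 (normexp) to 1.17, past 2-fold in 7. The number of the 9 genes at least 2-fold apart with DKK2 against normal glucose was 4, and 2 under a 3-fold rule; between high and normal glucose it was 0, and 4 under a 1.5-fold rule. Of 216 recomputed differences of the 9 genes 75 were fixed by construction, 54 under the 2 filters and 21 as the mean over the probes of genes with 1 probe. Of the other 141, 134 moved by less than the technical error and 7 by more. The 141 include median scaling and the deposited table, which could not move a difference by as much as the technical error. Median scaling shifts all genes of a comparison by 1 constant (0.041, -0.038 and 0.003 in the 3 comparisons). The deposited table holds nearly the same intensity. Over all genes, normexp shifted the median by -0.34 between high and normal glucose and by -0.37 with DKK2 against normal glucose, so that 4.19% and 19.0% of the genes past 2-fold were higher there, against 31.8% and 50.2% in the main setting; with cyclic loess the share was 40.8% with DKK2 against normal glucose. Genes at least 2-fold apart between high and normal glucose numbered 1408, and 4103 with normexp, 3231 with no filter, 801 with the stricter filter, 4617 under a 1.5-fold and 428 under a 3-fold rule. With DKK2 against high glucose they numbered 1770, and 983, 2657, 886, 4342 and 605 in that order; with DKK2 against normal glucose 3471, and 4943, 5020, 2197, 7233 and 1322. Pathway genes past 2-fold between high and normal glucose numbered 4, and 11 with normexp, 2 with the stricter filter (a signal of at least 100 on all arrays), 14 under a 1.5-fold and 2 under a 3-fold rule; with DKK2 against high glucose 5, then 12 and 2 under those rules, and with DKK2 against normal glucose 10, then 32 and 3. Igf1 on its brightest probe moved from -0.39 to -0.84 as the mean over probes with DKK2 against high glucose, and its sign between high and normal glucose (0.03) was below 0 with cyclic loess (-0.04). Naming by a gene name column alone was not run, since the files hold no such column. No paired analysis was possible because each condition had 1 array.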
